A study of Mus musculus with 30 samples.

Results

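Subcutaneous B16F10 melanomas of ARE-del heterozygous mice were compared after an agonist antibody against CD40 alone and after the same antibody together with anti-PD1. The comparison held 8 of the 30 tumor libraries of the series, 4 in each group, chosen by the treatment and genotype in their names. It asks what anti-PD1 adds, at the level of tumor mRNA, once CD40 has been engaged. All 8 hosts were female C57BL/6 mice with the genotype label ARE-del +/- (HET below). They received 250000 cultured B16F10 cells under the skin, and antibody 2 times a week from day 7. The anti-CD40 group received 0.25 mg of agonist anti-CD40, given as ascites. The combination group received anti-CD40 and purified anti-PD1 at 0.25 mg. B16F10 is an established mouse melanoma line, so the ARE-del allele sits in the host cells of these tumors and not in the melanoma cells. The labels do not say that the replicates came from separate mice, and the p-values can speak only of how these samples scatter.

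PD-1 (Pdcd1) is a receptor on activated T cells that dampens their signalling when it meets its ligands PD-L1 (Cd274) and PD-L2 (Pdcd1lg2). Anti-PD1 antibodies block that contact. CD40 is a receptor of dendritic cells, macrophages and B cells whose engagement licenses them to present antigen and to prime T cells. Activated T and NK cells release interferon-gamma (IFN-γ, Ifng), which induces antigen presentation genes, the T cell attracting chemokines Cxcl9 and Cxcl10, and Cd274 itself. The ARE-del allele removes an AU-rich element from the end of the Ifng message, an element that shortens the life of the mRNA.

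The 8 libraries held 25.9 M to 36.0 M reads. Pigment genes, which mark the melanoma cells, were high, and 19 of 19 melanocyte genes were measured with a summed level of 27696 to 46400 CPM (reads scaled to library size) in the anti-CD40 group and 31892 to 44615 CPM in the combination group. The main difference between the libraries did not follow the groups. The first principal component took 62.0% of the variance of the 8 libraries, and of its 50 leading genes 14 were on a list of 24 keratinocyte genes. The summed keratinocyte level ran from 43.1 to 1759 CPM in the anti-CD40 group and from 43.8 to 693 CPM in the combination group, and no keratinocyte gene was without reads in a whole group. Skeletal muscle genes spanned 84.1 to 822 CPM and 135 to 494 CPM. Anti-CD40 replicates 1 and 2 and combination replicate 4 were poor in keratinocyte mRNA, while anti-CD40 replicates 3 and 4 were the richest. Anti-CD40 replicate 3 was also the highest of the 8 libraries for 15 of 29 gene lists, among them those of T, B, cytotoxic and dendritic cells, macrophages, MHC genes and interferon responses. It was not the highest for the neutrophil, leukocyte chemokine and inflammatory cytokine lists. Of the genes tested, 64.4% had the larger SD in the anti-CD40 group, where the median SD of the log2 values was 0.34 against 0.29 in the combination group. The labels further give each library an L number without explaining it. Anti-CD40 replicates 1 to 3 carried L7, whereas anti-CD40 replicate 4 and all 4 combination libraries carried L8, so the L number moved with the treatment. In bulk tumors fewer cells of a type and less mRNA per cell cannot be told apart.

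No gene differed between the groups past the test. Of 15002 genes tested with limma, 0 (0%) had a Benjamini-Hochberg adjusted p under 0.05, and the smallest adjusted p was 0.9998. At an unadjusted p under 0.05 stood 92 genes (0.613%), of which 70 (0.467%) were higher and 22 (0.147%) lower in the combination group. If no gene differed, 750.1 genes would be expected at that level. The higher genes made up 76.1% of these 92 genes, and 64.4% of 135 genes after quantile normalization. The log2 difference was above 0 for 7810 genes (52.1%), with a median of 0.01 over all genes, and it passed 1 in either direction for 87 genes (0.580%). All 4 combination libraries lay above all 4 anti-CD40 libraries for 115 genes (0.767%), and below them for 73 genes (0.487%). The standard error of a log2 difference had a median of 0.26, for which a 95% interval reaches 0.53 to either side. After adjustment over all genes a difference had to be larger still to be called, so the count of 0 does not show that the groups were alike.

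**Figure D1:**
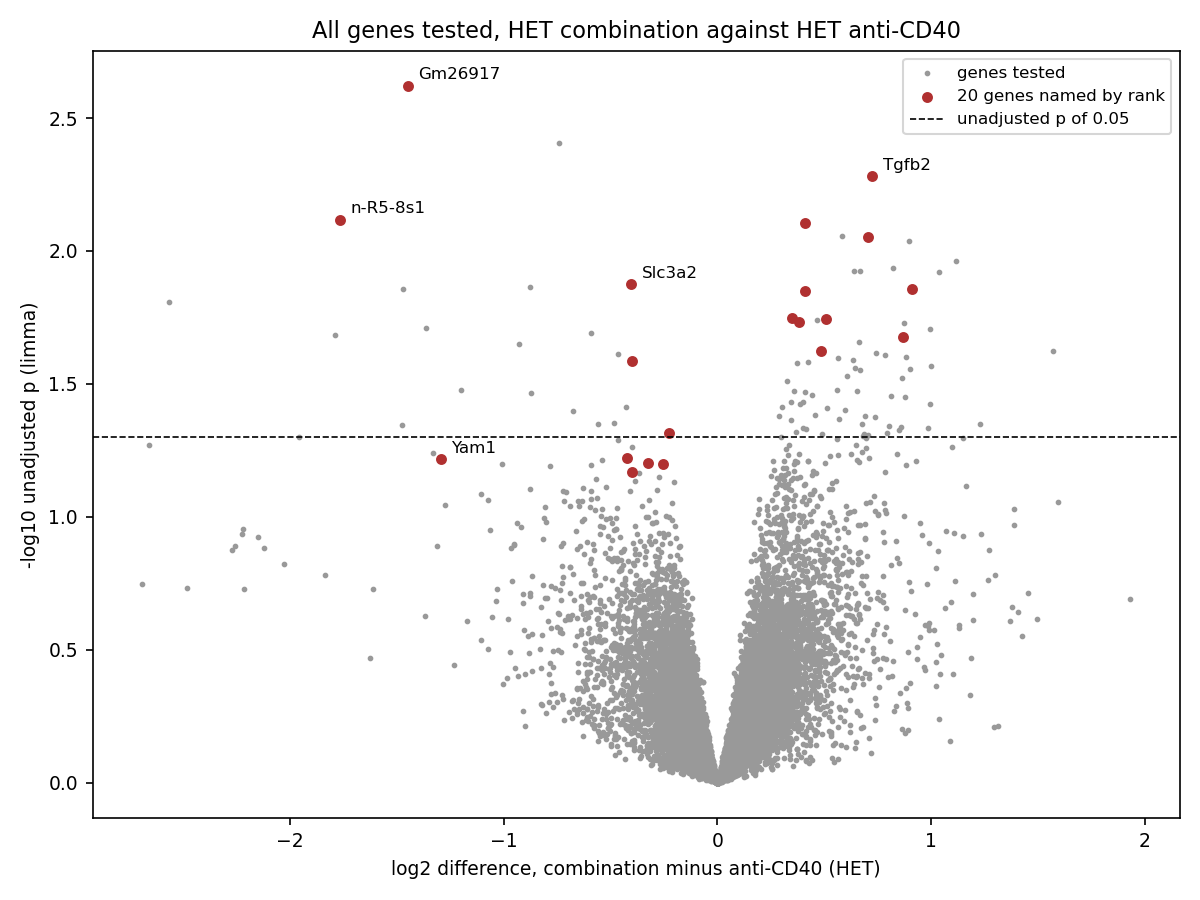
Each grey point is 1 of 15002 genes, with its log2 difference between the combination and anti-CD40 groups of HET tumors on the x axis and the negative log10 of the unadjusted limma p on the y axis. Red points are the 20 genes named by rank in the text, and the dashed line is an unadjusted p of 0.05, above which 92 genes lie.

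The receptor and ligands of the added antibody stood at overlapping levels in both groups. Pdcd1 (ENSMUSG00000026285.7, mm10 chromosome 1, 94038305 to 94052553, minus strand) had 0.0758, 0.147, 2.24 and 0.955 CPM in anti-CD40 replicates 1 to 4, and 0.476, 0.497, 1.03 and 0.507 CPM in combination replicates 1 to 4. The anti-CD40 group held both the lowest and the highest Pdcd1 values, and the combination libraries lay between them. The log2 difference was 0.32 ± 0.84 (SE, limma) with an exact permutation p of 0.771 (two-sided, n = 4 and 4). It was -0.27 without anti-CD40 replicate 1 and -0.09 without anti-CD40 replicate 2. Cd274 (chromosome 19, 29367455 to 29388095), the ligand that IFN-γ induces, was abundant, with 21.7, 40.7, 52.5 and 16.5 CPM after anti-CD40 and 22.4, 30.02, 27.6 and 37.8 CPM after the combination. The combination values fell inside the anti-CD40 range. The log2 difference of Cd274 was -0.03 ± 0.35 (SE), with an exact p of 0.886. It was 0.12, 0.24 and 0.09 without anti-CD40 replicate 2, anti-CD40 replicate 3 and combination replicate 1, and 0.81 within L8, where anti-CD40 has 1 library. Pdcd1lg2 stayed under the low-value filter, with 5, 3, 11 and 8 reads after anti-CD40 and 8, 3, 9 and 1 after the combination.

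Of 15 checkpoint genes, 7 passed the filter. Of these, 2 stood higher and 5 lower, 0 were called, and their median log2 difference was -0.14 beside 0.01 for all genes. Cd244, a receptor of NK and CD8 T cells, stood at 1.95 ± 1.45 CPM after anti-CD40 and 1.24 ± 0.87 CPM after the combination (SD, n = 4 each), a log2 difference of -0.59 ± 0.63 (SE). Nt5e, the enzyme CD73 that produces adenosine, stood at 3.98 ± 1.29 and 2.92 ± 0.98 CPM, a log2 difference of -0.42 ± 0.40. Neither passed the test. The list's median was 0.05 without anti-CD40 replicate 3, -0.33 without combination replicate 3, -0.79 with L number as a covariate and -0.61 within L8.

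On the CD40 side, the signalling genes differed little and the receptor itself varied widely between tumors. Cd40 (chromosome 2, 165055627 to 165072948, plus strand) had 1.29, 0.587, 3.35 and 3.06 CPM after anti-CD40 and 1.14, 0.691, 2.44 and 1.18 CPM after the combination. Anti-CD40 replicates 3 and 4 and combination replicate 3 were the high libraries, and the groups overlapped. The log2 difference was -0.43 ± 0.53 (SE), with an exact p of 0.514 for 4 against 4 libraries. All 19 measured CD40 and TRAF signalling genes passed the filter, 10 higher and 9 lower, with a median of 0.03 and library levels (the mean log2 value of the list) confined to 3.90 to 4.12 after anti-CD40 and 3.93 to 4.07 after the combination. Ikbkb, the kinase that activates NF-κB and the most abundant gene of that list, stood at 83.2 ± 10.4 and 85.2 ± 8.28 CPM, a log2 difference of 0.04 ± 0.12. Tnfaip3, which encodes the feedback inhibitor A20, stood at 10.6 ± 1.79 and 8.56 ± 0.65 CPM, a log2 difference of -0.29 ± 0.27.

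Genes that CD40 engagement is known to induce stood lower more often than higher. Of 12 that passed the filter, 3 were higher and 9 lower, with a median of -0.26, but 0 were called and the list's library levels overlapped, at 1.99, 1.83, 2.89 and 2.84 after anti-CD40 and 2.36, 1.77, 2.49 and 1.93 after the combination. The median stayed below 0 whichever library was left out, from -0.42 to -0.11. Ccr7, which guides mature dendritic cells to lymph nodes, had 0.758, 0.587, 1.88 and 2.36 CPM after anti-CD40 and 0.985, 0.387, 1.56 and 0.540 CPM after the combination. Tnfrsf9, the costimulatory receptor 4-1BB, had 3.79, 12.4, 11.3 and 9.26 CPM after anti-CD40 and 4.61, 6.02, 5.24 and 7.43 CPM after the combination. Both overlapped between the groups, with log2 differences of -0.60 ± 0.59 for Ccr7 and -0.54 ± 0.55 for Tnfrsf9. Fscn1, an actin bundler of mature dendritic cells that these tumors expressed at 214 ± 16.9 and 216 ± 34.1 CPM, differed by 0.00 ± 0.15.

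Most T cell and killer cell genes were scarce, and the levels of both lists were highest in anti-CD40 replicate 3. Cd8a (chromosome 6, 71373427 to 71379173), a chain of the CD8 coreceptor, had 0.644, 0.513, 4.19 and 0.541 CPM after anti-CD40 and 0.508, 0.387, 1.77 and 0.642 CPM after the combination. Gzmb, the protease granzyme B, had 0.189, 0.257, 2.87 and 0.827 CPM after anti-CD40 and 0.254, 0.470, 1.17 and 0.405 CPM after the combination. Replicate 3 was the highest library of either group for both genes, and the other libraries overlapped. The log2 difference of Cd8a was -0.41 ± 0.71 (SE, exact p = 0.543, n = 4 and 4) and that of Gzmb -0.28 ± 0.75 (SE, exact p = 0.771, n = 4 and 4). Without anti-CD40 replicate 3 the differences were 0.27 for Cd8a and 0.41 for Gzmb. Prf1, the pore-forming protein perforin, stayed under the filter with 4, 4, 69 and 3 reads after anti-CD40 and 8, 6, 14 and 4 after the combination.

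Among 26 T cell genes, 24 were in the table and 7 passed the filter, 2 higher and 5 lower, with a median of -0.29. A scarce gene could pass through a few libraries where it was high, so these 7 do not stand for the whole list. Summed over all 24 genes, the level was 37.7 to 105 CPM after anti-CD40 and 39.3 to 79.1 CPM after the combination, and no gene was without reads in a whole group. Abundant genes weigh most in this sum. Thy1, Tcf7, Cxcr3 and Lck averaged 25.8, 13.8, 8.52 and 7.69 CPM after anti-CD40. Cd3d, Cd3e and Trac averaged 0.923, 0.573 and 0.689 CPM there, so the sum says little of such scarce genes. Thy1, a surface glycoprotein of T cells and the most abundant of the 7, had 16.1, 11.6, 36.5 and 38.9 CPM against 25.3, 11.6, 26.5 and 15.4 CPM. Cd3g, a chain of the T cell receptor complex, had a log2 difference of -0.49 ± 0.78, and Trbc2, a constant segment of the receptor itself, -0.45 ± 0.84. Of 22 cytotoxic and NK genes, 20 were in the table and 7 passed the filter, 2 higher and 5 lower, with a median of -0.28. These 7 do not stand for their whole list either. Summed over the 20 genes, the level was 7.44 to 54.2 CPM after anti-CD40 and 7.73 to 21.9 CPM after the combination. Gzmc, another granzyme, had 0.189, 0.147, 4.96 and 1.24 CPM after anti-CD40 and 0.445, 0.138, 0.743 and 0.0338 CPM after the combination. Its log2 difference was -1.31 ± 0.84, and in this comparison it passed 1 CPM only in anti-CD40 replicates 3 and 4. Il2rb, a receptor chain for IL-2 and IL-15, differed by -0.60 ± 0.68, and Ccl5, a chemokine of activated T cells, by -0.31 ± 0.56. The medians of these lists turned to 0.17 for T cells and 0.41 for cytotoxic and NK genes without anti-CD40 replicate 3, and to 0.00 for the cytotoxic list without combination replicate 2. Without anti-CD40 replicate 2 they were -0.61 and -0.63, in that order of lists. With L number as a covariate they were -0.76 and -0.56, and within L8 -0.31 and -0.65.

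**Figure D2:**
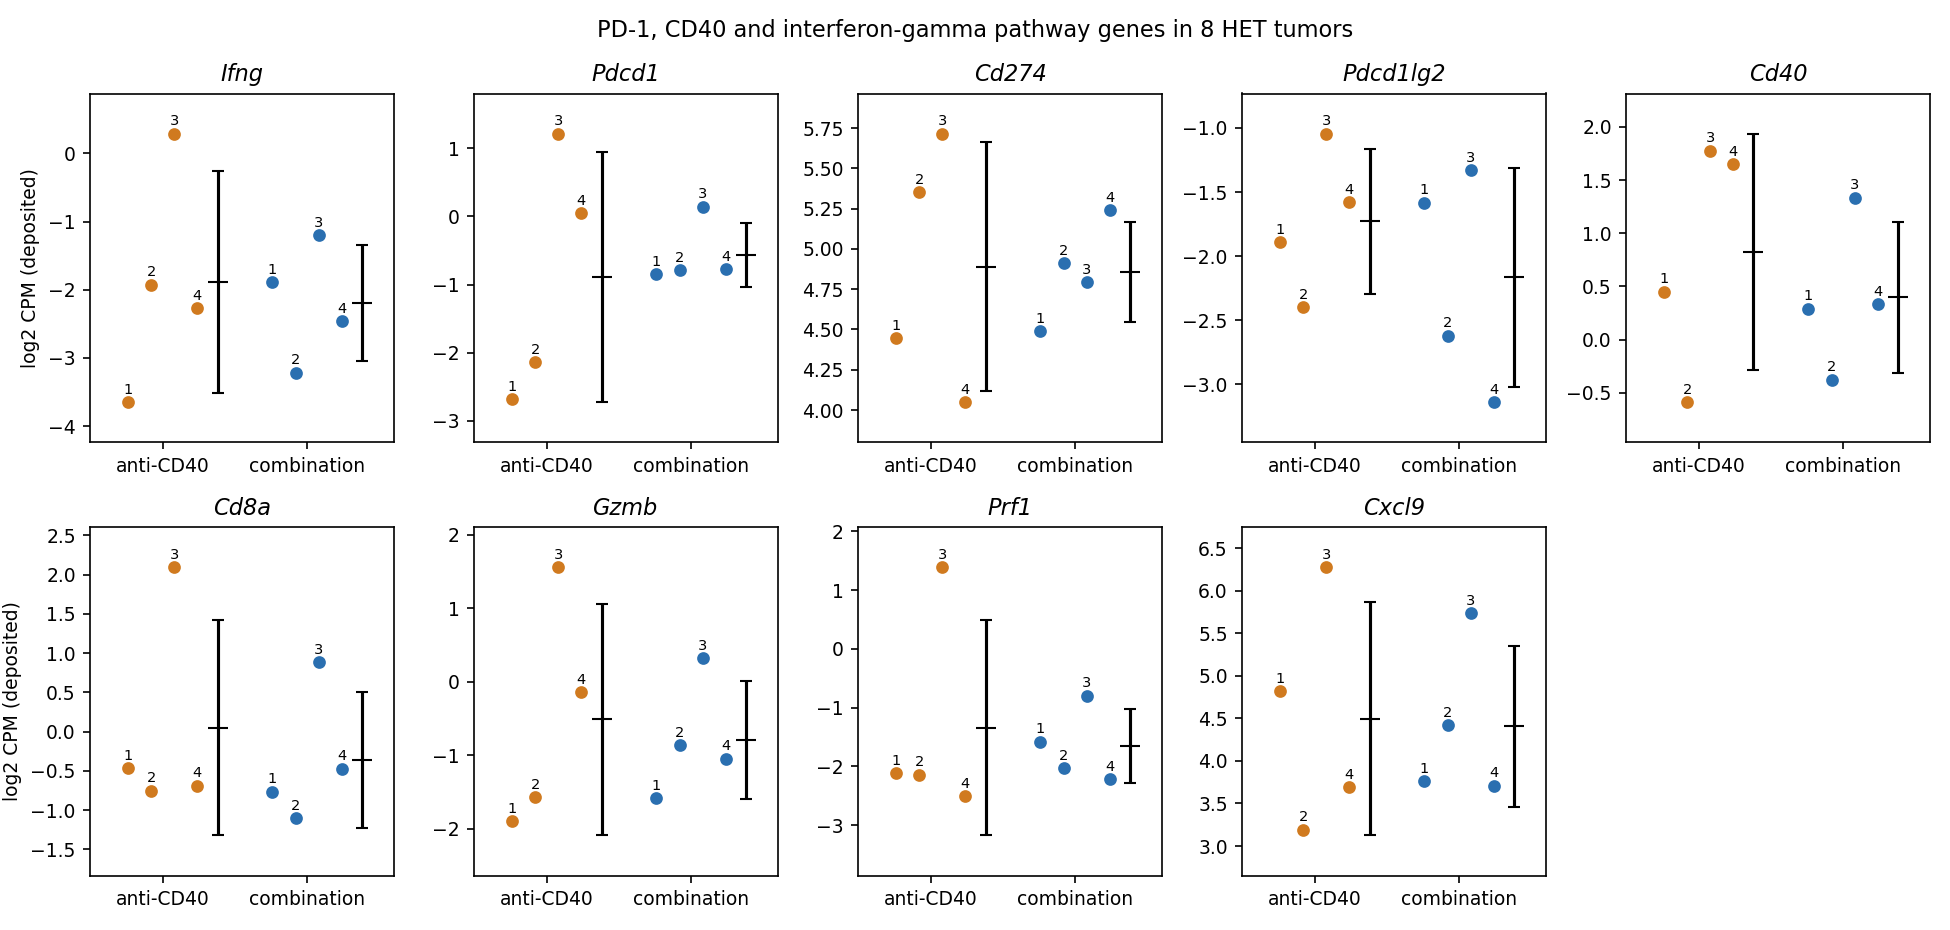
Deposited log2 CPM (y axis, with its own range in each panel) of 9 genes of the PD-1, CD40 and IFN-γ pathways, 1 numbered point for each HET tumor and the mean with its SD in black beside each group. Anti-CD40 replicate 3 is the highest of the 8 libraries for all 9 genes, and the groups overlap in every panel.

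IFN-γ mRNA itself was near the limit of detection. Ifng (chromosome 10, 118441046 to 118445892) had 0, 5, 31 and 4 reads in anti-CD40 replicates 1 to 4 and 6, 1, 10 and 3 reads in combination replicates 1 to 4. The library with 0 reads allows a level of up to 0.114 CPM, taken as 3 reads, which covers counting error only. Replicate 3 was the highest of each group, and the log2 difference of -0.30 had an exact p of 0.8 for 4 against 4 libraries. Cxcl9, the chemokine for the receptor CXCR3 on T cells, had 28.1, 9.06, 77.4 and 12.8 CPM after anti-CD40 and 13.5, 21.3, 53.2 and 13.002 CPM after the combination. Replicate 3 was again the highest of each group, and the log2 difference was -0.09 ± 1.08 (SE, exact p = 0.971, n = 4 and 4). It was above 0 without anti-CD40 replicates 1 (0.02) or 3 (0.51) and without combination replicates 1 (0.13) or 4 (0.14).

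The 30 genes of an IFN-γ response list showed the same pattern of tumors. Of the 30, 12 stood higher and 18 lower, 0 were called, and the median log2 difference was -0.07 beside 0.01 for all genes. The library levels were 4.57, 4.29, 6.15 and 4.24 after anti-CD40 and 4.61, 4.15, 5.55 and 4.60 after the combination. In both groups replicate 3 stood apart above the other 3 libraries, which overlapped. The median moved either way with the libraries used. It was 0.34 without anti-CD40 replicate 3, 0.09 without combination replicate 2 and 0.39 within L8, but -0.37 without combination replicate 3, -0.30 without anti-CD40 replicate 4 and -0.21 with L number as a covariate. Irgm1, an immunity-related GTPase and the most abundant member, had 132, 135, 410 and 115 CPM after anti-CD40 and 152, 118, 242 and 151 CPM after the combination. Irf8, a transcription factor of the myeloid lineage, had 11.9, 11.99, 67.0 and 19.4 CPM against 13.4, 8.95, 34.7 and 9.93 CPM, and Tgtp1, another interferon-induced GTPase, 11.1, 8.29, 84.5 and 5.06 CPM against 8.20, 4.36, 30.9 and 8.004 CPM. All 3 genes were highest in anti-CD40 replicate 3 and second highest in combination replicate 3. Their log2 differences were -0.09 ± 0.45, -0.54 ± 0.60 and -0.54 ± 1.15, in the same order. For comparison, the list level in 4 HET tumors given control IgG ran from 2.32 to 4.06, so every library of the 2 CD40-treated groups lay above those controls.

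Many promoters that answer to IFN-γ carry a palindrome known as the GAS element. The motif TTCNNNGAA, which reads alike on both strands, was found in the promoter window of 8 of 20 genes of the IFN-γ list with an entry (40%), against 2582 of 27025 genes with one (9.55%). The windows run from 250 bases before to 50 bases after the start of the gene and come from RefSeq (GRCm38.p6). The 8 genes include the relatives Igtp and Irgm2, Tgtp1 and Tgtp2, and Gbp5 and Gbp7. Around the motif the windows of Igtp and Irgm2 are nearly alike, as are those of Tgtp1 and Tgtp2. The 8 are thus not separate cases, and the 40% counts related copies more than once. A match in these letters is a description and not a shown binding site. The windows of Irf1 (chr11:53769764-53770063, plus strand), a transcription factor induced by IFN-γ, and Igtp (chr11:58199306-58199605, plus strand), an interferon-induced GTPase, are shown with the motif in capitals, since both genes followed the tumor pattern of the list. Irf1 had 52.1, 40.6, 161 and 60.02 CPM after anti-CD40 and 67.3, 35.7, 106 and 44.8 CPM after the combination. Igtp had 38.4, 38.3, 247 and 44.6 CPM against 57.8, 30.6, 114 and 39.2 CPM. Replicate 3 was the highest library of each group for both.
Irf1: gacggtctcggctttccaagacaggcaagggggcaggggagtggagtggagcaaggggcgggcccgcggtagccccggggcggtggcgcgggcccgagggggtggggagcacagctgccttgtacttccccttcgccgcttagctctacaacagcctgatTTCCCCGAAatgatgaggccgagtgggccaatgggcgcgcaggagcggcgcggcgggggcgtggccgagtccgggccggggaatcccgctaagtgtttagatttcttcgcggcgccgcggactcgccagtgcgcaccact
Igtp: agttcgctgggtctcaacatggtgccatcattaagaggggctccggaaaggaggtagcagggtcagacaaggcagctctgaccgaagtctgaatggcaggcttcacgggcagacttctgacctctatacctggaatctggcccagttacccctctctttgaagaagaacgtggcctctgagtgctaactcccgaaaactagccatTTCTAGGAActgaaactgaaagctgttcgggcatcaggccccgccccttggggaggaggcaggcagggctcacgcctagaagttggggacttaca

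Genes of the type I interferon response stood higher in the combination group more evenly than other immune genes, though 0 were called. Of 24 genes, 22 stood higher and 2 lower, with a median of 0.20, whereas 52.1% of all genes were above 0. The library levels were 3.89, 4.25, 5.18 and 4.10 after anti-CD40 and 4.63, 4.29, 4.71 and 4.67 after the combination. All 4 combination libraries lay above 3 of the 4 anti-CD40 libraries, and anti-CD40 replicate 3 lay above them all. Ifi44 had 2.88, 3.74, 9.27 and 2.90 CPM after anti-CD40 and 4.73, 4.53, 8.21 and 11.6 CPM after the combination, a log2 difference of 0.69 ± 0.55. Oas2, a sensor that activates RNA decay, had 10.4, 15.5, 19.7 and 5.41 CPM against 17.5, 13.5, 13.9 and 23.9 CPM, a difference of 0.54 ± 0.62. Bst2, the membrane protein tetherin and the most abundant member, was 1 of the 2 lower genes, at 214, 170, 553 and 348 CPM against 417, 188, 345 and 143 CPM. The median of the list was 0.47 without anti-CD40 replicate 3, 0.38 within L8 and 0.23 with L number as a covariate, but -0.02 without anti-CD40 replicate 1. Keratinocyte and muscle levels as covariates left it at 0.23.

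Antigen presentation genes stood slightly lower, again with replicate 3 at the top. Of 22 MHC class I and processing genes, 4 stood higher and 18 lower, with a median of -0.17 and library levels of 6.74, 6.38, 8.11 and 7.16 after anti-CD40 and 7.21, 6.46, 7.58 and 6.50 after the combination. B2m, the light chain of class I molecules, had 1194, 1150.5, 2463 and 1426 CPM against 1737, 1315, 2010 and 1429.6 CPM, a log2 difference of 0.11 ± 0.26. H2-T23, a non-classical class I gene, differed by -0.47 ± 0.46, and Psmb10, an immunoproteasome subunit, by -0.46 ± 0.50. Of 10 MHC class II genes, 1 stood higher and 9 lower, with a median of -0.25. Cd74, the invariant chain that escorts class II molecules, had 92.8, 45.7, 787 and 231 CPM after anti-CD40 and 145, 71.8, 404 and 158 CPM after the combination, a log2 difference of -0.05 ± 1.03. H2-DMa, which loads peptides onto class II molecules, differed by -0.31 ± 0.71, and its partner gene H2-DMb2 by -0.57 ± 0.62. Both medians were above 0 without anti-CD40 replicate 3, at 0.18 for class I and 0.36 for class II, and without combination replicate 2, at 0.02 and 0.06. With L number as a covariate they were -0.31 and -0.76, and without anti-CD40 replicate 2 -0.41 and -0.65. Class I and class II genes are near-identical copies in part, and how shared reads were assigned is not stated, so their single values are uncertain.

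**Figure D3:**
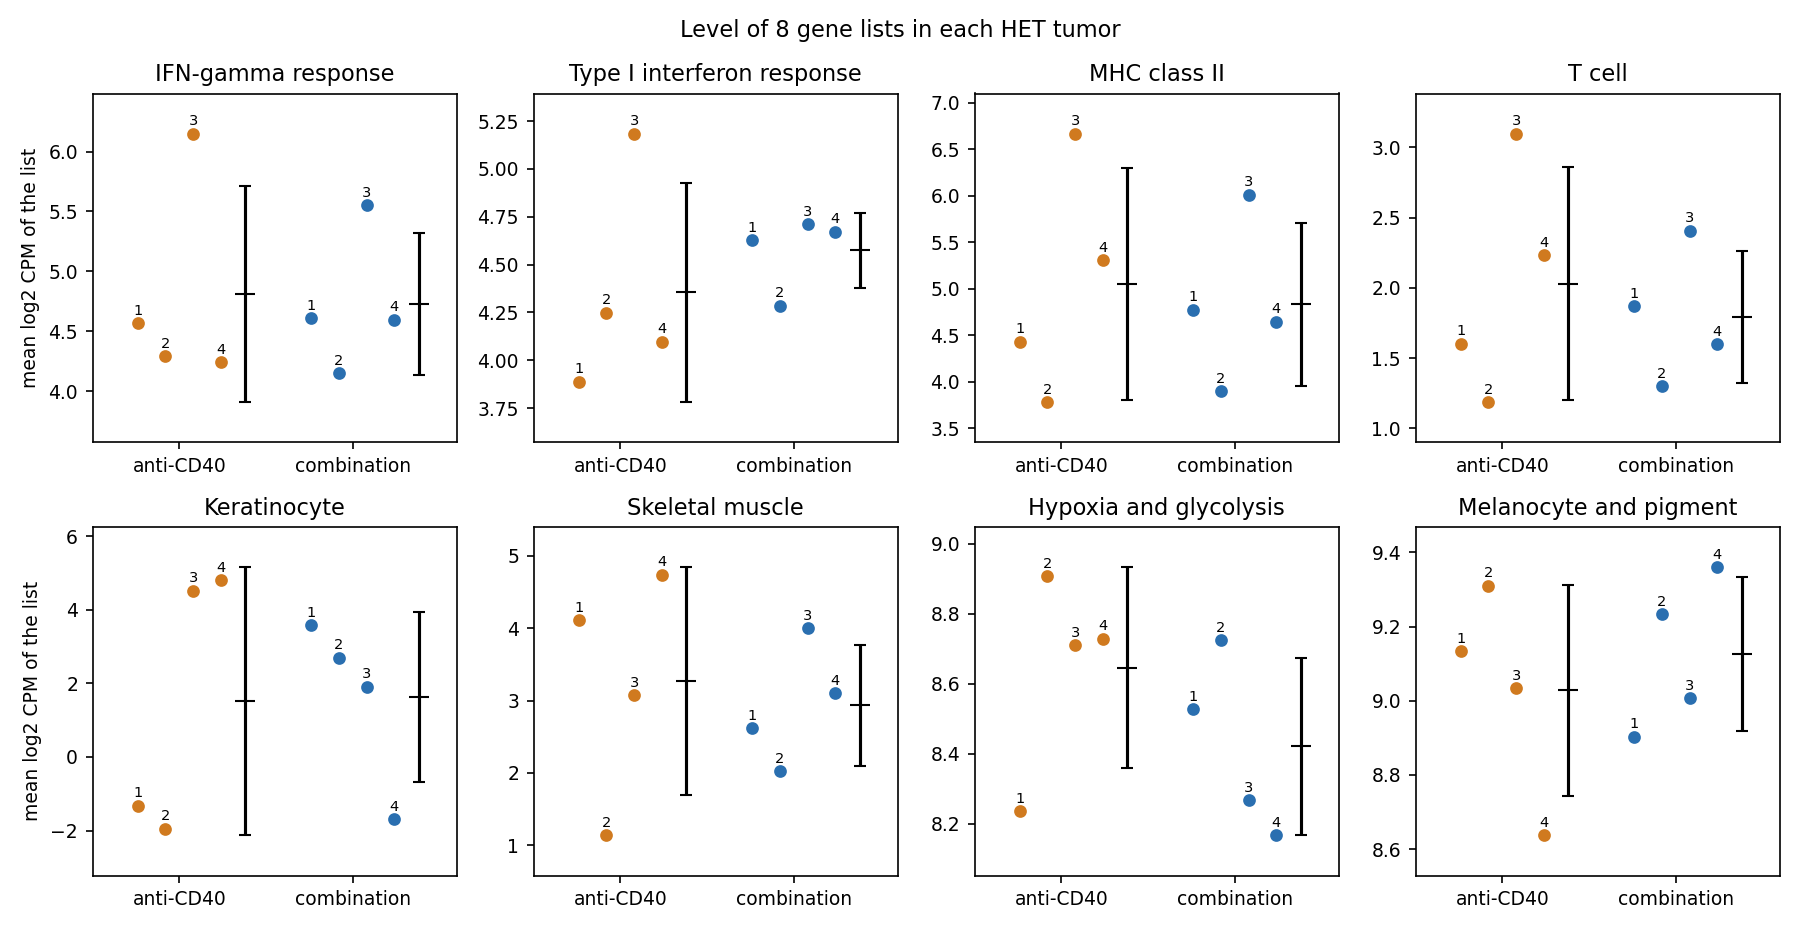
Mean log2 CPM of the members of 8 gene lists (y axis, with its own range in each panel), 1 numbered point for each HET tumor and the mean with its SD in black. Replicate 3 of either group is high for the 4 immune lists of the top row, except that combination replicates 1, 3 and 4 lie close together for type I interferon genes, and keratinocyte levels span 6.74 log2 units within the anti-CD40 group.

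Myeloid genes overlapped between the groups throughout. Of 21 macrophage and monocyte genes, 5 stood higher and 16 lower, with a median of -0.06. Apoe, a lipid carrier that macrophages and melanoma cells express, stood at 1542 ± 300.2 and 1446 ± 290.3 CPM. Trem2, a lipid receptor of tumor macrophages, had 11.2, 11.3, 25.6 and 26.7 CPM after anti-CD40 and 20.1, 6.41, 18.5 and 6.55 CPM after the combination, a log2 difference of -0.61 ± 0.62. Cd163, a scavenger receptor of tissue macrophages, was low, with 0.795, 0.293, 0.221 and 0.923 CPM against 0.508, 0.497, 2.02 and 2.87 CPM, a difference of 1.10 ± 1.26. The groups overlapped for all 3 genes. Of 12 dendritic cell genes, 8 stood higher and 4 lower, with a median of 0.05, and Batf3, which type 1 conventional dendritic cells need, differed by -0.64 ± 0.57. Of 7 Fc receptor genes, through which therapeutic IgG engages myeloid cells, 2 stood higher and 5 lower, with a median of -0.20. Fcgr1 differed by -0.40 ± 0.74, the shared signalling chain Fcer1g by -0.23 ± 0.54, and the cytosolic receptor Trim21 by 0.24 ± 0.28. The medians changed sign for each of these lists when 1 library was left out, with ranges of -0.36 to 0.16 for macrophages, -0.24 to 0.16 for dendritic cells and -0.51 to 0.15 for Fc receptors.

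Neutrophil and chemokine genes were uneven between tumors. Of 13 neutrophil genes, 5 stood higher and 8 lower, with a median of -0.08 that ran from -0.27 to 0.57 when 1 library was left out. S100a9, a subunit of calprotectin, had 0.492, 1.87, 17.5 and 48.8 CPM after anti-CD40 and 9.43, 7.46, 5.70 and 1.55 CPM after the combination. Its 2 highest libraries were anti-CD40 replicates 3 and 4, the 2 richest in keratinocyte mRNA. The part of keratinocytes, which can also express S100a9, was not tested. Lcn2, an iron-binding protein of neutrophils and epithelia, differed by 0.93 ± 0.97, and the neutrophil chemokine Cxcl3 by -0.78 ± 1.05. Of 17 leukocyte chemokines, 6 stood higher and 11 lower, with a median of -0.22 that ran from -0.55 to 0.04. Cxcl10, the CXCR3 ligand induced by interferons, had 33.4, 15.8, 53.8 and 55.5 CPM against 49.0, 18.8, 61.3 and 31.0 CPM. Its log2 difference was 0.04 ± 0.62, while the CC chemokines Ccl3 and Ccl4 differed by -0.73 ± 0.73 and -0.65 ± 0.69. Of 17 inflammatory cytokine and NF-κB target genes, 7 stood higher and 10 lower, with a median of -0.14 that ran from -0.24 to 0.07. In that list Nfkbia, the NF-κB inhibitor, differed by -0.17 ± 0.29, and Il6 and Cxcl5, both under 1 CPM in every library, by -0.58 ± 0.82 and 1.13 ± 0.97.

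Among 14 immunosuppressive enzymes and cytokines, 3 stood higher and 11 lower, with a median of -0.28 that stayed below 0 whichever library was left out, from -0.39 to -0.08. Arg1, the arginine-degrading enzyme of suppressive myeloid cells, had 8.98, 12.8, 17.5 and 23.996 CPM after anti-CD40 and 7.40, 7.29, 23.01 and 4.29 CPM after the combination. All combination libraries but replicate 3 lay below every anti-CD40 library, and the log2 difference was -0.79 ± 0.90. Lgals1, a lectin that kills activated T cells and is abundant in melanoma, differed by -0.27 ± 0.28. Tgfb2 went the other way and is described with the ranked genes. Of 8 B and plasma cell genes that passed the filter, 5 stood higher and 3 lower, with a median of 0.13. The 3 lower genes were named after their values were seen. Cd22, Cd79b and Sdc1 differed by -0.74 ± 0.61, -0.20 ± 0.75 and -0.18 ± 0.30. Cd79a, a signalling chain of the B cell receptor, had 0.265, 0.330, 0.441 and 0.159 CPM after anti-CD40 and 0.604, 0.497, 0.425 and 0.946 CPM after the combination. Combination replicate 3 lay just under anti-CD40 replicate 3, and the other 3 lay above all anti-CD40 libraries. The log2 difference of Cd79a was 0.88 ± 0.37, at an unadjusted limma p of 0.025. Igkc, the kappa light chain, was carried by combination replicate 4, at 14.7 CPM against 0.953 to 1.99 CPM in the other 3, and differed by 1.19 ± 1.00, while Xbp1, which plasma cells and other secretory cells use, differed by 0.10 ± 0.16. Of 17 complement genes, 8 stood higher and 9 lower. C3, the central component, had 9.02, 5.54, 22.9 and 14.5 CPM against 8.20, 11.1, 34.7 and 92.7 CPM, a difference of 1.03 ± 0.98. Combination replicate 4 was the highest library for C3 as well. Cd55, which shields host cells from complement, differed by 1.30 ± 0.91 and C4b by 0.09 ± 0.42.

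Tumor cell genes differed by small amounts. Of 19 melanocyte and pigment genes, 12 stood higher and 7 lower, with a median of 0.13 that ran from -0.08 without anti-CD40 replicate 4 to 0.16. Dct, an enzyme of melanin synthesis and a melanoma antigen, had 8267, 11276, 8139 and 7409 CPM after anti-CD40 and 9150.4, 11204, 8056 and 9883 CPM after the combination, a log2 difference of 0.13 ± 0.18. Slc24a5, an ion exchanger of melanosomes, differed by 0.30 ± 0.25, and Kit, the stem cell factor receptor, by 0.33 ± 0.43. Of 30 proliferation genes, 11 stood higher and 19 lower, all between -0.17 and 0.14, with a median of -0.03. Top2a, the topoisomerase of dividing cells, stood at 476 ± 138 and 503 ± 78.6 CPM, while Cdk1 and Cenpa, a mitotic kinase and a centromeric histone, differed by -0.16 ± 0.22 and -0.17 ± 0.20.

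Hypoxia and glycolysis genes stood lower by small amounts in 20 of 21 cases. The median was -0.24, and it stayed below 0 whichever library was left out, from -0.33 to -0.13, but 0 genes were called. The library levels were 8.24, 8.91, 8.71 and 8.73 after anti-CD40 and 8.53, 8.72, 8.27 and 8.17 after the combination. Combination replicates 3 and 4 were at the low end, together with anti-CD40 replicate 1, and the groups overlapped. Slc2a1, the glucose transporter GLUT1, had 153, 271, 202 and 254 CPM after anti-CD40 and 186, 214, 134 and 117 CPM after the combination, a log2 difference of -0.44 ± 0.30. Ndrg1, a hypoxia-induced stress gene, differed by -0.40 ± 0.31, and Gapdh, the glycolytic enzyme and most abundant member, by -0.24 ± 0.25. With L number added to the fit the hypoxia median was 0.05, and within L8 it was -0.27.

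Mitochondrially encoded genes showed the highest median of the 29 lists. Of 15, 14 stood higher and 1 lower, with a median of 0.41 that ran from 0.20 to 0.74 when 1 library was left out. The library levels were 7.19, 7.65, 6.29 and 6.57 after anti-CD40 and 6.58, 7.73, 7.32 and 7.75 after the combination, so the groups overlapped. The level was lowest in anti-CD40 replicates 3 and 4 and combination replicate 1, which were the 3 libraries richest in keratinocyte mRNA. The part of the skin content in this difference was not tested beyond the fit with keratinocyte and muscle covariates, where the median was 0.42. mt-Co1, a core subunit of cytochrome oxidase, had 6392, 10436, 2756 and 1985 CPM after anti-CD40 and 2750.1, 9950.1, 4826 and 8709 CPM after the combination, a log2 difference of 0.41 ± 0.53. mt-Atp6, a subunit of ATP synthase, had 49.9, 70.9, 34.5 and 55.3 CPM against 62.1, 81.9, 81.2 and 83.2 CPM. Its combination values lay above all anti-CD40 values in replicates 2, 3 and 4, and the log2 difference was 0.59 ± 0.21, at an unadjusted limma p of 0.009. It was named after its values were seen. mt-Atp8, which overlaps mt-Atp6, differed by 1.02 ± 0.70 and mt-Nd2, a complex I subunit, by 0.70 ± 0.46.

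Stromal and carried-along tissues varied more between tumors than between treatments. Of 18 endothelial genes, 3 stood higher and 15 lower, with a median of -0.20 that stayed below 0 whichever library was left out, from -0.29 to -0.11. Vwf, the clotting factor carrier of vessel walls, had 85.8, 82.9, 58.7 and 56.2 CPM after anti-CD40 and 27.9, 49.4, 54.7 and 108 CPM after the combination. Combination replicates 1 to 3 lay below all anti-CD40 libraries and replicate 4 above them all, and the log2 difference was -0.38 ± 0.37. Egfl7, a secreted vessel protein, differed by -0.41 ± 0.33 and Eng, a TGF-β coreceptor, by -0.03 ± 0.14. Of 24 fibroblast and matrix genes, 13 stood higher and 11 lower, with a median of 0.03, a difference of -0.15 ± 0.26 for Sparc and differences of 0.73 ± 0.65 and 0.63 ± 0.80 for the proteoglycans Lum and Dcn. Of 24 keratinocyte genes, 13 stood higher and 11 lower, and Krt14, a basal keratin, had 0.379, 0.0733, 218 and 487 CPM after anti-CD40 and 175, 72.1, 29.03 and 0.338 CPM after the combination. The log2 difference of Krt14 was 1.09 ± 2.73, and those of Ivl and Cst6 were -0.99 ± 1.16 and -0.28 ± 0.46. Of 20 skeletal muscle genes, 2 stood higher and 18 lower, with a median of -0.28 that was 0.22 without anti-CD40 replicate 4. Acta1, skeletal actin, had 101, 8.69, 33.9 and 139 CPM against 36.6, 17.4, 112 and 36.4 CPM, and Myh4 and Pvalb differed by -0.90 ± 1.75 and -0.93 ± 1.08. Of 14 adipocyte genes, 11 stood higher and 3 lower, with a median of 0.29 that was -0.03 without combination replicate 4. Cidec and Plin1, which coat lipid droplets, differed by 1.02 ± 1.08 and 0.99 ± 0.87, and the lipid desaturase Scd1 by 0.41 ± 0.30. Of 9 red blood cell genes, 4 stood higher and 5 lower, and Slc4a1, the anion exchanger of the red cell membrane, differed by -0.28 ± 1.14. Of 20 immediate early and stress genes, 6 stood higher and 14 lower, with a median of -0.18 that was 0.03 without anti-CD40 replicate 4. Fosb had 13.1 CPM in anti-CD40 replicate 4 and 0.602 to 2.73 CPM in the other 7 libraries, and differed by -1.37 ± 1.13.

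**Figure D4:**
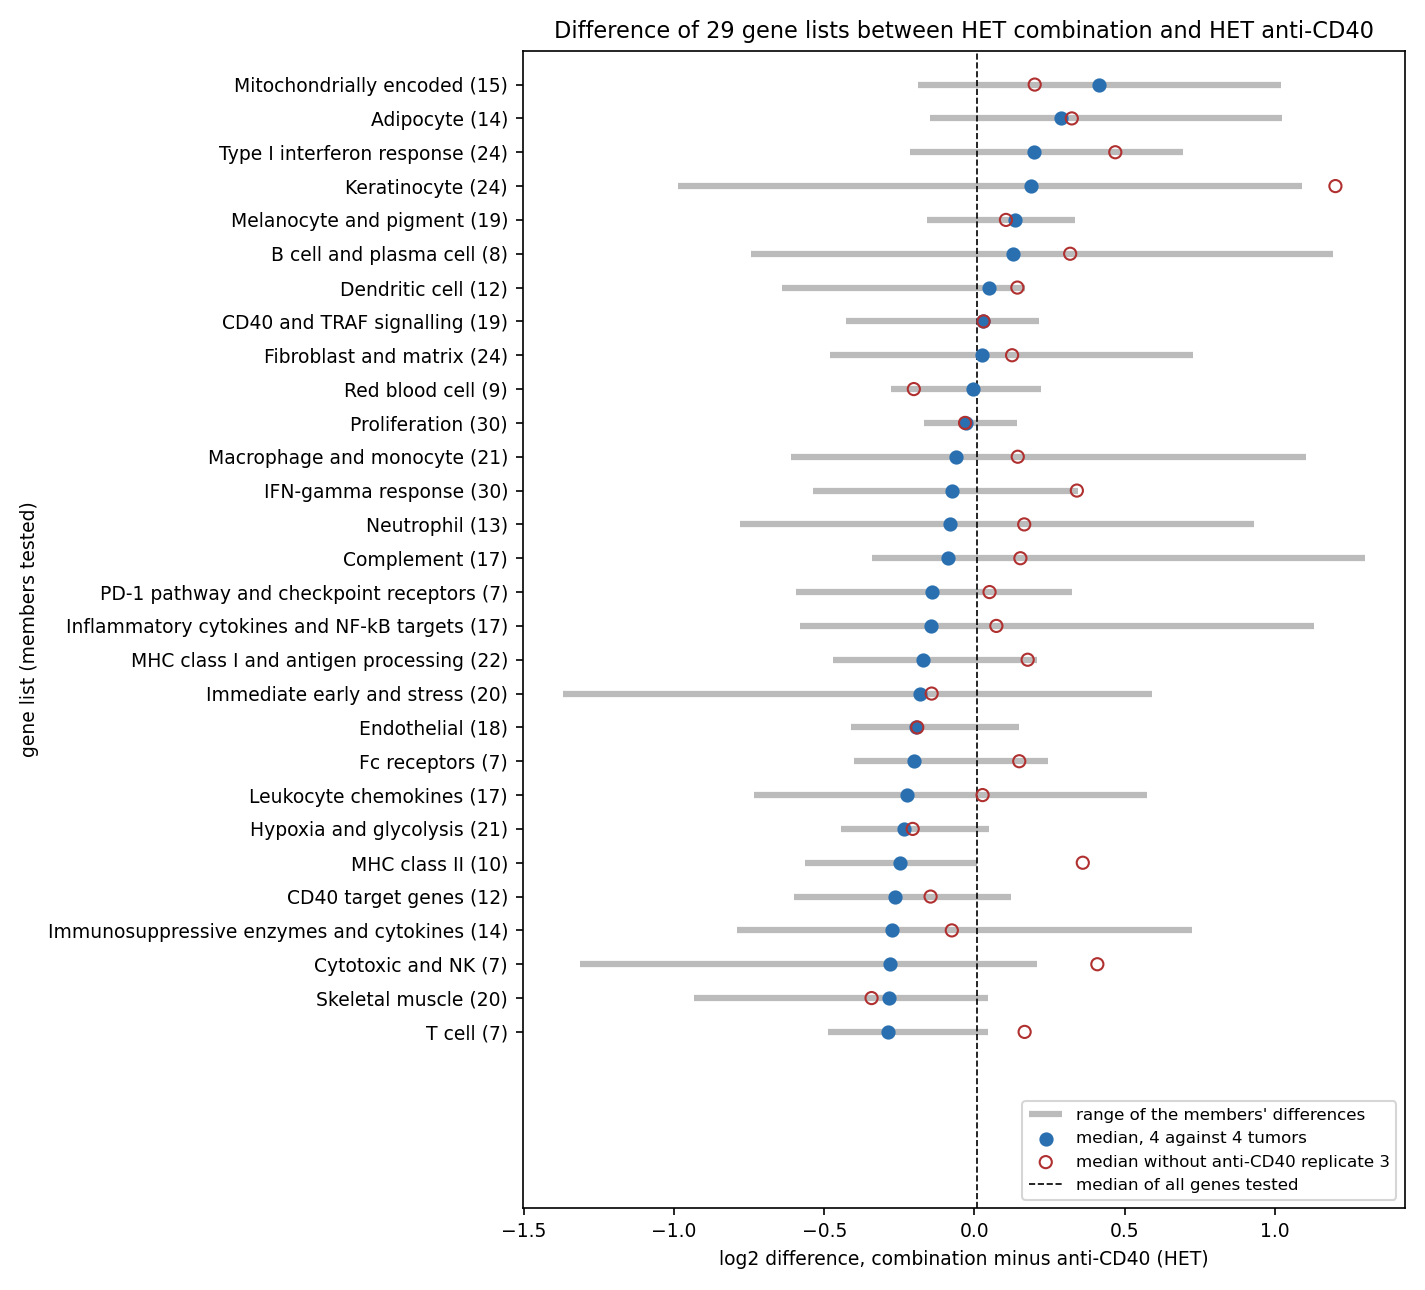
For each of 29 gene lists (y axis, with the number of members tested), the median log2 difference between the combination and anti-CD40 groups (blue), the same without anti-CD40 replicate 3 (open red) and the range over the members (grey), beside the median of all genes (dashed, 0.01). Leaving out that 1 library turned 12 medians from below to above 0.

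In all, 20 of the 29 lists had a median below that of all genes and 9 above. No list had library levels that did not overlap between the groups, and 0 list members were called. The median kept its sign whichever of the 8 libraries was left out for 6 lists, namely CD40 targets, immunosuppressive genes, hypoxia and endothelial genes, which stood lower, and mitochondrial and B cell genes, which stood higher. The other 23 changed sign without at least 1 library. Of the 6 lists, 4 also kept their sign with L number as a covariate and within L8. Among these 4, the immunosuppressive list had a median of -0.007 within L8, near 0, against -0.28 in the main fit. The B cell median went from 0.13 to -0.59 with the covariate and to -0.015 within L8, and the hypoxia median to 0.05 with the covariate. L number as a covariate lowered the median of 23 of the 29 lists and changed the sign of 8. It gave -0.79 for CD40 targets, -0.64 for macrophages, -0.31 for dendritic cells, -0.54 for Fc receptors, -0.76 for neutrophils and -0.88 for chemokines. Melanocyte genes went to 0.47 and mitochondrial genes to 0.95. That fit sets L8 against L7 within a group through 1 anti-CD40 library (replicate 4) and 1 HET control IgG library, and these values rest on both. The lists were drawn up with earlier results of these data known, so these counts carry no test.

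Among genes whose libraries did not overlap and whose mean log2 value was above 0, 107 were higher and 65 lower in the combination group, and the 10 of each with the smallest p are named here. The groups do not overlap by the choice of these genes, and none was called, so their values describe the top of the ranking. Tgfb2 (ENSMUSG00000039239.10, chromosome 1, 186622792 to 186705989, minus strand) led the higher genes. It encodes TGF-β2, a secreted growth factor that restrains T cells. Tgfb2 had 4.09, 4.40, 3.02 and 5.12 CPM after anti-CD40 and 7.40, 8.40, 5.24 and 6.59 CPM after the combination. The lowest combination value lay just above the highest anti-CD40 value, and the log2 difference was 0.73 ± 0.24 (SE), at an unadjusted limma p of 0.0052. Rnf11 (chromosome 4, 109451098 to 109484728, minus strand), a small RING protein that works with A20 to limit NF-κB, had 39.7, 54.5, 41.6 and 47.4 CPM after anti-CD40 and 59.6, 59.0, 59.9 and 63.0 CPM after the combination. All 4 combination libraries were close together, and the log2 difference was 0.41 ± 0.14. Ube2w, a ubiquitin-conjugating enzyme, stood at 20.02 to 24.3 CPM after anti-CD40 and 26.7 to 34.4 CPM after the combination (0.41 ± 0.16 on the log2 scale), and Ebag9, which slows the release of lytic granules, at 18.05 to 20.9 CPM and 22.8 to 26.7 CPM (0.35 ± 0.14). Scoc, a Golgi protein, stood at 36.5 to 44.1 CPM and 46.8 to 56.8 CPM (0.38 ± 0.15), and Lrp3, a receptor of the LDL receptor family, at 0.843 to 1.25 CPM and 1.40 to 2.77 CPM (0.87 ± 0.35). The zinc finger gene Gm13139 differed by 0.71 ± 0.25, 9230110C19Rik by 0.51 ± 0.20, and the pseudogenes Gm28438 and Gm11868 by 0.91 ± 0.34 and 0.49 ± 0.20. Reads of Gm13139 and of the pseudogenes may be shared with near-identical copies, so their levels are uncertain.

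**Figure D5:**
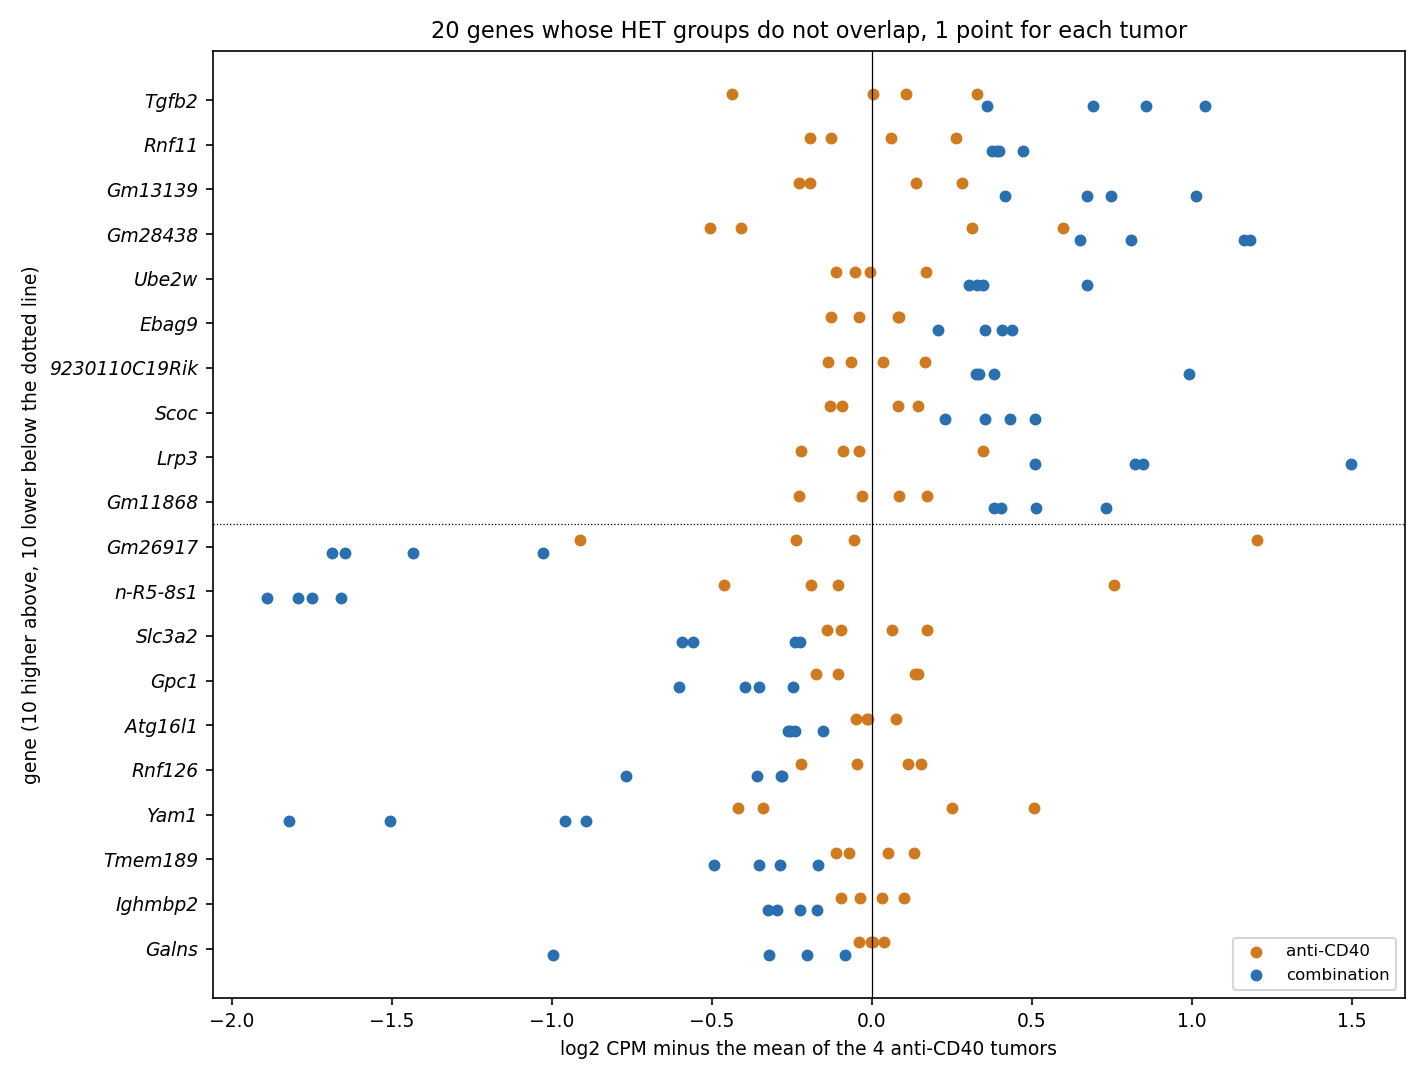
The 20 genes named by rank, 1 point for each HET tumor, as log2 CPM relative to the mean of the 4 anti-CD40 tumors (x axis). For every gene the combination points (blue) lie on 1 side of the anti-CD40 points (orange) by the way the genes were chosen, and the 3 widest shifts are those of n-R5-8s1, Gm26917 and Yam1.

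Transcripts that hold or collect ribosomal RNA were ranked 1 (Gm26917), 2 (n-R5-8s1) and 7 (Yam1) among the lower genes. Gm26917 (ENSMUSG00000097971.3, chromosome 17, 39843013 to 39846341, plus strand) and Yam1 (chromosome 17, 39846958 to 39848788, plus strand) are long noncoding RNA annotations that lie side by side and are known to collect ribosomal RNA reads, and n-R5-8s1 is a 5.8S ribosomal RNA gene. Gm26917 had 1702, 626, 393 and 710 CPM after anti-CD40 and 363, 229, 274 and 236 CPM after the combination. n-R5-8s1 had 32.9, 25.7, 31.0 and 59.8 CPM against 10.5, 10.2, 9.56 and 11.2 CPM, and Yam1 4915, 3264, 3091 and 5865 CPM against 2222, 2126, 1168 and 1456 CPM. By the choice of these genes every anti-CD40 library lay above all 4 combination libraries, including anti-CD40 replicate 4, which shares L8 with them. The log2 differences were -1.45 ± 0.43 for Gm26917 at an unadjusted limma p of 0.0024, -1.76 ± 0.61 for n-R5-8s1 and -1.29 ± 0.66 for Yam1. Together these 3 genes took 0.366% to 0.678% of the reads after anti-CD40 and 0.1498% to 0.273% after the combination. The other 22 libraries of the series spanned 0.163% to 2.24%, a range that takes in every library of the comparison except combination replicate 3. With L number in the fit the differences were -1.83, -2.05 and -1.52. Why ribosomal reads differed between the groups was not tested.

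The other 7 lower genes differed by much smaller amounts. Slc3a2 (chromosome 19, 8706882 to 8723369, minus strand), the heavy chain CD98 that amino acid transporters need to reach the membrane, had 344, 333, 384 and 414 CPM after anti-CD40 and 311, 244, 314 and 249 CPM after the combination. Its groups were separated by less than the spread within either, and the log2 difference was -0.40 ± 0.15. Gpc1, a heparan sulfate proteoglycan of the cell surface, had 270, 333, 283 and 336 CPM against 256, 231, 238 and 200 CPM, a log2 difference of -0.40 ± 0.17. Atg16l1, which autophagy needs to lipidate LC3, had 48.7 to 53.1 CPM against 42.0 to 45.3 CPM (-0.23 ± 0.11 on the log2 scale), a small difference between tight groups. The ubiquitin ligase gene Rnf126 differed by -0.42 ± 0.21, the lipid desaturase gene Tmem189 by -0.32 ± 0.17, the helicase gene Ighmbp2 by -0.25 ± 0.13 and the lysosomal sulfatase gene Galns by -0.40 ± 0.21. Of the 20 ranked genes, 10 of the higher and 5 of the lower had an unadjusted p under 0.05.

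The same addition in wild type (WT) hosts, with 3 combination and 3 anti-CD40 tumors and no library in common, gave the closest comparison in the series. All of these WT libraries carried L6, whereas in HET the L number moved with the treatment. A difference between the genotypes therefore cannot be told apart from that change of L number within HET. The difference between the genotypes passed the test for 0 of 15002 genes (0%), with 106 (0.707%) at an unadjusted p under 0.05 and a smallest adjusted p of 0.9986. Of the 10 higher ranked genes 8 were above 0 in WT as well, where 51.2% of all genes were, and of the 10 lower ranked genes 8 were below 0, where 48.8% of all genes were. Tgfb2 differed by 0.58 in WT, Gm13139 by 0.68, Slc3a2 by -0.34, Gm26917 by -0.61 and Yam1 by -1.03. Ebag9, Scoc and Gpc1, by contrast, stood at 0.02, 0.01 and 0.01 in WT. For Gm26917 and Yam1 the WT anti-CD40 group was uneven. Replicate 2 had 1095 and 17808 CPM, replicate 1 had 326 and 2814 CPM and replicate 3 had 179 and 1888 CPM. The WT combination tumors had 209 to 305 CPM of Gm26917 and 1969 to 2659 CPM of Yam1. n-R5-8s1 was also highest in WT anti-CD40 replicate 2, at 68.7 CPM against 13.9 and 8.59 CPM. The type I interferon list was above 0 in both genotypes, with medians of 0.61 in WT (22 of 24 genes higher) and 0.20 in HET, and so was the mitochondrial list, at 0.42 and 0.41. Type I interferon levels in WT ran from 3.03 to 4.72 after anti-CD40 (SD 0.93). After the combination they ran from 4.18 to 4.28, so the WT groups overlapped. The IFN-γ list had medians of 0.39 and -0.07, and Cxcl9 log2 differences of 0.99 and -0.09. For Cxcl9 the difference between genotypes was -1.08 ± 1.65 (SE), and for Cd274, at 0.58 in WT, it was -0.61 ± 0.54. Neither passed the test.

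Keratinocyte, neutrophil and red blood cell lists had the widest gaps between the genotypes. Keratinocyte genes had a median of -3.71 in WT, with 0 of 24 higher, against 0.19 in HET, neutrophil genes -2.08 against -0.08, and red blood cell genes -1.83 against -0.01. These list differences were not tested. Keratinocyte list levels of the WT anti-CD40 tumors ran from -1.61 to 5.94 (SD 3.77, n = 3). In the WT combination tumors the level was -2.11 ± 0.11 (SD, n = 3). Neutrophil levels in WT were 1.62 ± 1.35 after anti-CD40 and -0.94 ± 0.77 after the combination. Red blood cell levels in WT were 4.06 ± 1.18 and 2.54 ± 0.897, in that order. The part of single WT tumors in these gaps was not tested. By the smallest p of the genotype difference, the genes that stood higher in HET relative to WT were led by Gm7658, Gm21967 and Hrsp12. Hrsp12, an enzyme that clears reactive amino acid intermediates, stood at 16.4 ± 1.65 CPM after anti-CD40 and 20.04 ± 2.08 CPM after the combination in HET (SD, n = 4 each), and at 22.2 ± 2.86 and 17.96 ± 1.87 CPM in WT (SD, n = 3 each). Its HET and WT differences thus had opposite signs, with a log2 difference between genotypes of 0.59 ± 0.24, and those of Gm7658 and Gm21967 were 1.17 ± 0.43 and 0.77 ± 0.30. The genes that stood lower were led by Tor1aip2, Prkcz and Srgap3. Prkcz, an atypical protein kinase C, stood at 4.85 ± 0.81 and 4.60 ± 0.92 CPM in HET and at 4.70 ± 1.08 and 10.7 ± 3.05 CPM in WT. The genotype difference of Prkcz, -1.24 ± 0.44, went with a high level in the WT combination tumors, and those of Srgap3 and Tor1aip2 were -1.19 ± 0.44 and -0.50 ± 0.17.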

How the data were processed

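RNA sequencing of 30 tumors was read from 1 deposited table of 18975 genes. The submitters' processing notes name STAR, edgeR and mm10, without versions or settings. The deposited log2 values are log2 CPM made by the authors. By the values themselves, they use an effective library size and a prior count of 2 reads, and 100% of them gave whole reads within a tolerance of 0.01. Strandedness and annotation release are not given in the sources used here, so overlapping genes cannot be told apart. GENCODE vM21 (mm10) held 18837 of the identifiers and is the source of the 1-based coordinates.

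A gene was kept if its log2 value passed 0 in 3 or more of the 30 libraries (15002 genes). limma 3.58.1 in R 4.3.3 (moderated test with intensity trend) was fitted with 1 mean for each of 8 groups, and Benjamini-Hochberg adjusted p-values were taken over all genes kept at a threshold of 0.05. The fit was tested on simulated data. Because the values are not counts, count models were not run, and voom on the recovered reads served as an alternative. For 9 core genes a two-sided exact permutation test on the mean log2 values was run with scipy 1.17.1; its smallest p for 4 against 4 libraries is 0.029, and all 9 p-values are unadjusted. CPM values are the recovered reads scaled by the authors' effective library size, and fold changes refer to the log2 scale with its prior count, which understates those of low genes.

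Named genes are the 9 core genes; the 10 higher and 10 lower genes of smallest p among those whose libraries did not overlap and whose mean log2 value was above 0; for each of 29 lists its called members, its most abundant member and its 2 members of largest difference; and the 3 genes of smallest p in each direction for the genotype difference. Another core gene and 1 list member are not reported here. The groups, members and lists were chosen with earlier results of these data known. Alternatives changed the filter, the pseudocount (1 CPM), the scaling, the libraries in the fit, the weights and the covariates, or left out each library in turn.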

Additional observations from a re-analysis of the deposited data

Results flagged for a closer look

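Of 116 groups of 4 libraries examined, 7 held 1 library far from the other 3, with a gap to the nearest of them that took more than 0.829 of the group's range (Dixon's limit). Chance flags about 1 in 20 groups, and 7 of 116 is close to that share. The groups also include ranked genes, which were chosen by the values of these same libraries. In the anti-CD40 group replicate 3 was the far library for 2 immune genes: Cd8a, the CD8 coreceptor chain, with a gap of 0.899 of the range, and Prf1, perforin, with 0.897. In the combination group replicate 3 was the far library for Pdcd1, which encodes PD-1, with a gap of 0.923. Combination replicate 4 stood apart for the level of the immunosuppressive list, with a gap of 0.832, for Ube2w, a ubiquitin-conjugating enzyme gene, with 0.877, for 9230110C19Rik with 0.917, and for the ubiquitin ligase gene Rnf126 with 0.840.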

How the results depend on the processing

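No gene was called under any alternative in which calls were counted, for the comparison or for the difference between genotypes. Calls were not counted in the fit within L8, where anti-CD40 has 1 library. The 92 genes at an unadjusted p under 0.05 became 774 with L number as a covariate, 323 with keratinocyte and muscle covariates, 173 with no filter, 154 with library weights, 149 in a fit of only the 8 libraries and 110 with voom; the cause was not tested. Leaving out 1 library gave 26 (without combination replicate 4) to 177 (without combination replicate 1) genes, with 42 without anti-CD40 replicate 3, 164 and 175 without anti-CD40 replicates 1 and 2. An alternative chosen after seeing the data, without 1 HET IgG library in the shared spread, gave 127. With the replicate block there were 103 genes. Same-numbered libraries correlated at -0.71, 0.38, 0.27 and -0.67, and 1 of 4 combination libraries correlated best with its own number. These correlations run over all genes kept, where the first principal component took 62.0% of the variance. They show no pairing by number but cannot decide whether the samples were paired. Log2 differences changed sign for Pdcd1 with L number (-0.79), a 1 CPM pseudocount (-0.053) and within L8 (-0.61), for Cd274 with L number (0.52) and within L8 (0.81), for Cd8a within L8 (0.33) and for Cxcl9 with the tissue covariates (0.064) and within L8 (0.72). Without 1 library they ran from -0.27 to 1.03 for Pdcd1, -0.31 to 0.24 for Cd274, -0.83 to 0.27 for Cd8a, -0.74 to 0.41 for Gzmb and -0.53 to 0.51 for Cxcl9. All 5 were highest without anti-CD40 replicate 3, and lowest without anti-CD40 replicate 1 (Pdcd1, Gzmb), anti-CD40 replicate 4 (Cd274) or combination replicate 3 (Cd8a, Cxcl9). Of the recomputed list medians, 17 moved by more than 1 SD between libraries and 621 did not. That limit is wide beside the medians, at 0.68 for the T cell list with its median of -0.29. Leaving out 1 library could hardly pass it, though 23 lists changed sign that way. The 621 values therefore do not show that the medians were stable. The ranked genes kept their direction in 440 of 440 recomputed values. Since they were chosen for no overlap, the sign could not change within L8 or when 1 library was left out. An adjusted limma p was taken for 420 of these values, and each was 0.70 or more. With 4 libraries a group and 1 anti-CD40 library in L8, L number and treatment can be told apart only weakly. At 25.9 M to 36.0 M reads, Ifng, Prf1 and Pdcd1lg2 had few reads in most libraries and stayed under the low-value filter. They were not tested with limma, and a difference could be missed.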
